A study of Mus musculus with 8 samples.

Results

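The 9 chromatin loci of Ppm1h, Nav3, Tead1, Aff3, Arhgap24, Rapgef2, Col26a1, Prex1 and Slc44a3 were followed through restoration and renewed knockdown of PU.1 in AML246, a leukaemia line of mouse myeloid origin. The loci were chosen by measured values, namely the number of lost less gained regions at each gene: many of their accessible regions were called before doxycycline (Dox) but in none of the 3 later lists of total cells on the drug. A region was a cluster of ATAC-seq peak summits merged over all libraries and assigned to the nearest protein-coding gene span within 100 kb (mm10). The 9 loci held 178 of 68800 regions. Cells grew in serum-containing medium with IL-3, and all groups came from this 1 line. Groups were untreated cells of day 0, cells given 0.1 µg/mL Dox for 4, 8 or 12 days, a CD11b-high sort at day 12, and cells 4, 8 or 12 days after Dox was withdrawn at day 12. All samples except the CD11b-high sort were total viable cells. Per the labels, Dox restored PU.1 and its withdrawal returned the cells to knockdown. The construct that carries out the knockdown, and whether the line is a single clone, were not given in the sources used here.

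PU.1, encoded by Spi1, is an ETS-family transcription factor that drives macrophage and granulocyte differentiation and binds purine-rich sites with a GGAA core. Distal accessible regions often mark enhancers, and their accessibility commonly differs more between cell states than that of promoters. The 9 genes share no single pathway. Ppm1h encodes a metal-dependent serine/threonine phosphatase that acts on Rab GTPases, Tead1 the DNA-binding partner of the Hippo effectors YAP and TAZ, and Aff3 a nuclear protein of the AF4/FMR2 family. Arhgap24, Rapgef2 and Prex1 regulate small GTPases of the Rac and Rap families. Nav3 encodes a microtubule-binding neuron navigator protein, Col26a1 an extracellular collagen and Slc44a3 a member of the choline transporter-like family.

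Each of the 8 groups had 1 library, so there was no spread between replicates, no test between conditions was run, and values describe these libraries. The lists held 31957 to 51175 summits, with median scores of 9.41 to 12.6. The read depth behind them was not given in the sources used here. Peaks were called separately per library, so "open" means that a summit was called and "not open" that none was. A region gone from a list and a region below the calling threshold cannot be told apart. Of 13 myeloid leukaemia marker genes, 8 had a region open at day 0 inside the gene or within 1 kb of it, among them Spi1, Cebpa, Ptprc and Kit but not Mpo, Elane or Itgam. Of 10 genes listed here as markers of other cell types, 4 had one, namely Cd3e, Cdh1, Col1a1 and Pecam1. Cd79a, Alb and Krt5, among others, did not. Whether myeloid cells express any of these 10 was not checked.

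Promoter sequences of 5 of the 9 genes were found in the RefSeq promoter table (GRCm38.p6). The windows of 4 of them overlapped called regions and are shown because accessibility at these starts was called in every library, unlike that of the lost regions. Each line gives the 250 bases before the annotated transcript start, 5′ to 3′ on the gene's strand. Capitals mark GAGGAA, the core of a PU.1-type ETS site, or CCGCCC, the GC box, searched on both strands (as TTCCTC or GGGCGG on the other), and the marked motifs do not overlap.
Ppm1h (chr10:122678512-122678761, plus strand): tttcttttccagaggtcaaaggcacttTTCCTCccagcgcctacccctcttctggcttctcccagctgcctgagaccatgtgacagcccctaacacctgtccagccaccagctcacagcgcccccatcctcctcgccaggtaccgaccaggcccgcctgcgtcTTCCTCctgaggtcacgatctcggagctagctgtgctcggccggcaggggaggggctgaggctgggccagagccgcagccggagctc
Prex1 (chr2:166713833-166714082, minus strand): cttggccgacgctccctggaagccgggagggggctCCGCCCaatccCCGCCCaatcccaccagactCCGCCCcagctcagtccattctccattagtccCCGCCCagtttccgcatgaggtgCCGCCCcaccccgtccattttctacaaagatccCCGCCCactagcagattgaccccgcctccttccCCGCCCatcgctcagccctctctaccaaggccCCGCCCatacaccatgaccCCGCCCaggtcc
Slc44a3 (chr3:121532345-121532594, minus strand): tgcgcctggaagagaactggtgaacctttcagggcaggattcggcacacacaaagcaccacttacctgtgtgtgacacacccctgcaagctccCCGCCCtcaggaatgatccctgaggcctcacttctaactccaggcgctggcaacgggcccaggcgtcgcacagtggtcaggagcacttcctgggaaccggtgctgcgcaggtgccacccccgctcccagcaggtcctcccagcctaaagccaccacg
Aff3 (chr1:38627245-38627494, minus strand): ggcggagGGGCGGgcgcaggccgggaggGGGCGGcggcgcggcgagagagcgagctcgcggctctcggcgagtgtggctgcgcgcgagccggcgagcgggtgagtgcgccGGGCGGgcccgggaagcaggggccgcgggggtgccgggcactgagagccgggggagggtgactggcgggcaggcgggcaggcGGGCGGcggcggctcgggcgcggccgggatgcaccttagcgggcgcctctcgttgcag

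The Ppm1h window held 2 matches to GAGGAA or its complement TTCCTC and 0 GC boxes. The other windows held 0 matches to GAGGAA, and GC boxes numbered 9 at Prex1, 1 at Slc44a3 and 4 at Aff3. Of 32851 windows of this length in the table, 23.3% held GAGGAA and 32.7% a GC box. G and C made up 64.8% of the Ppm1h window, 66.4% of Prex1, 62.8% of Slc44a3 and 82% of Aff3, against a median of 52.4% over all windows. A match is a description of the letters and shows no binding. The 2 windows of Rapgef2 in the table overlapped no called region.

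Calls in every library were the reason for showing these starts, so nothing is read from their persistence. At the lower gene ends of Tead1 and Arhgap24, given below, some lists had no call. Ppm1h's start lay in a region inside the gene (122678550 to 122679160) that scored 32.4, 43.6, 38.9 and 25.0 on days 0, 4, 8 and 12. The same region scored 26.4 in CD11b-high cells and 55.8, 31.2 and 30.3 at 4, 8 and 12 days off. Scores are the peak caller's and move with depth, so each was also ranked as the percentage of summits in its own list that scored lower. On that scale the Ppm1h start stayed between 79.6% and 95.0% in all 8 libraries.

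Prex1's start region (chromosome 2, 166713686 to 166714209, midpoint 115 bp outside the gene) was also open in all 8 libraries, but its rank was 85%, 85.7%, 72.1% and 62.7% on days 0, 4, 8 and 12 and 54.7% in the CD11b-high sort. It ranked 62.6%, 78.4% and 72.5% at 4, 8 and 12 days off. Day 12, the CD11b-high sort and 4 days off were the 3 lowest libraries. At Slc44a3 the start region (chromosome 3, 121532155 to 121532505) ranked between 56.8% and 78.4% in all 8 libraries, with no library apart.

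At Aff3's start the summits of the libraries fell in adjoining regions. Whether a single site shifted or separate sites were called was not tested. The region at 38627313 to 38627720 of chromosome 1 was called in 6 libraries, all but those of days 4 and 12. The adjoining region at 38626968 to 38627299 was called only on days 4 and 12. The nearest summit therefore lay at -326 to -219 bp from the start (negative values are upstream) in 6 libraries and at 95 and 126 bp on days 4 and 12. Every library had a summit near this start.

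Of the 178 regions of the 9 loci, 42 were lost, meaning called on day 0 but on none of days 4, 8 and 12. Among all gene-assigned regions the lost share was 5.49%, but the loci were chosen for this count and nothing is read from the difference. Gained, meaning not called on day 0 but on each of days 4, 8 and 12, were 3 (1.69%), beside 4.86% of all assigned regions. This count entered the choice too, so nothing is read from it either. Open at all 4 times were 38, beside 32.5%. The remaining 95 had other patterns. Most of the lost calls rested on weak summits: 5 of the 42 scored at least 10 at day 0. With classes set anew from only summits scoring at least 10, 7 regions were lost, with 0 at Nav3, Tead1, Prex1 and Slc44a3. These 7 were not all among the 42, because the cut also removed weaker calls on Dox. The members had long gene spans, with a median of 227429 bp against 23112 bp over the 16303 genes with a region, and a median of 18 regions against 3, so a ranking by counts could reach genes with many regions more easily.

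Just inside the choice, 6 of the 9 genes had a difference of 4 between lost and gained regions, and the other 3 had 5. Of the genes left out, 3 also had a difference of 4, among them Bach2 with 4 lost and 0 gained of 13 regions. The next value, 3, was reached by 46 genes. Those among them with most lost regions were Ccdc162, Id1, Insr, Slc39a8 and Spocd1, each with 4 lost and 1 gained.

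**Figure D1:**
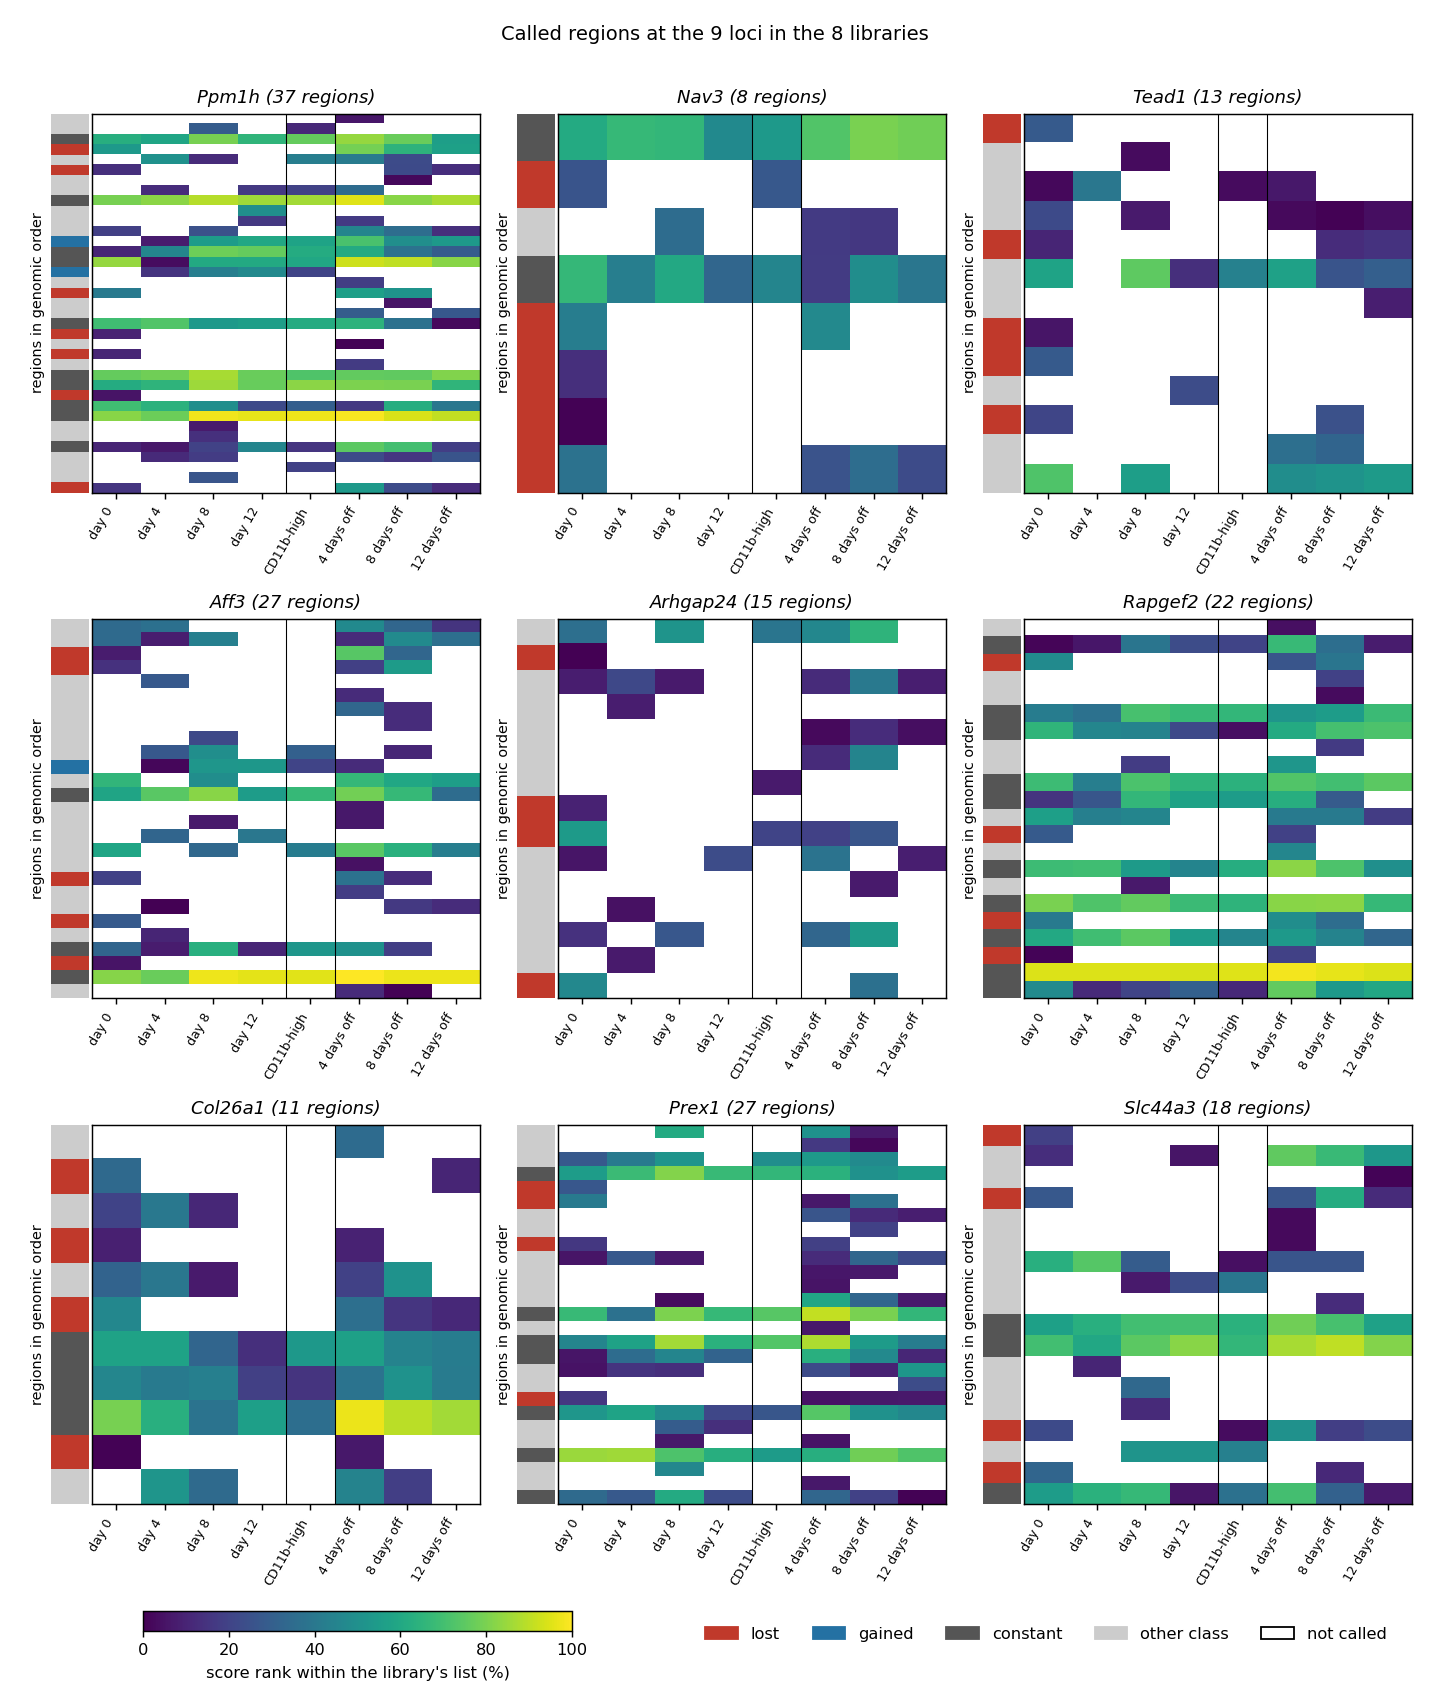
Regions of each locus in genomic order (rows) in the 8 libraries (columns), coloured by the rank of the region's score within that library's list in percent, white where not called. The strip at the left of each panel gives the class, and the 42 lost regions (red) are filled at day 0 and blank at day 4, 8 and 12 by definition, with calls returning in part of them to the right of the right-hand vertical line.

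Most lost regions were weak at day 0 and lay away from gene ends. Their day-0 scores ran from 2.02 to 13.2 with a median of 5.90, and 37 of the 42 scored below 10. The median rank at day 0 was 20.2%, against 16.0% for the 3505 lost regions of other genes. Of the 42, 28 lay inside the gene and 14 outside. Only 1, at Slc44a3, lay within 1 kb of a gene end (2.38%, exact 95% interval 0.0603 to 12.6), against 13.8% (12.6 to 14.9) of lost regions of other genes. The persisting regions of the 9 loci were also seldom near an end (3 of 38, 7.89%, against 41.0% elsewhere), so this was not particular to lost regions. The 9 genes had long spans, with a median of 227429 bp against 23112 bp over all genes with a region. The part of span length in these shares was not tested. Regions of a locus share their chromosome neighbourhood, so intervals cover counting error only.

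Ppm1h, the phosphatase gene (chromosome 10, 122677428 to 122945795), had 37 regions, more than any other member, with 7 lost, 2 gained and 10 open at all 4 times. Lost and persisting regions were interleaved along the gene. The strongest of the lost ones (122608057 to 122608420, 69190 bp outside the gene) scored 12.8 at day 0, was not open in any library on Dox or in CD11b-high cells, and scored 30.5, 17.5 and 12.1 at 4, 8 and 12 days off. Its rank went from 53.7% at day 0 to 79.1% at 4 days off and 56.7% at 12 days off. A region nearby (122602322 to 122602754) had calls in all 8 lists.

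On the other side of the gene, the lost region at 122958344 to 122958982, 12868 bp outside the span, scored 5.29 at day 0, then 13.9, 6.39 and 4.58 at 4, 8 and 12 days off. Inside the gene, 122755228 to 122755852 scored 9.25 before Dox, then 14.9 and 12.2 at 4 and 8 days off, with no call at 12. A distal region at 122619582 to 122619936 (57669 bp outside) scored 4.94 at day 0 and returned only at 8 and 12 days off, at 6.30 and 4.69. These 4 all came back at 1 or more times off. The remaining 3, inside the gene at 122769598 to 122769898, 122777984 to 122778284 and 122802239 to 122802539, scored 4.43, 4.62 and 3.73 at day 0 and were open in no other library.

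Of the 2 gained Ppm1h regions, that at 122725897 to 122726234 scored 4.18, 13.3 and 12.0 at day 4, 8 and 12 and was also called at all 3 times off, at 23.3, 11.5 and 11.1. The other, at 122747493 to 122747913, scored 5.19, 9.66 and 8.92 on Dox and 5.27 in CD11b-high cells, and was not open at any time off. A region that was called throughout ranked low on Dox and high before and after it. At 122739960 to 122740357 the score was 38.8, 3.16, 15.5 and 12.3 on days 0, 4, 8 and 12, 11.9 in the CD11b-high sort, and 49.4, 41.7 and 25.8 at 4, 8 and 12 days off. Ranked within its list it stood at 84.1% on day 0, 3.21% on day 4, 60.8% on day 12 and 82.3% to 92.4% after withdrawal, so all 4 restored libraries were lower than the 4 others. This region was singled out after its values were seen.

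**Figure D2:**
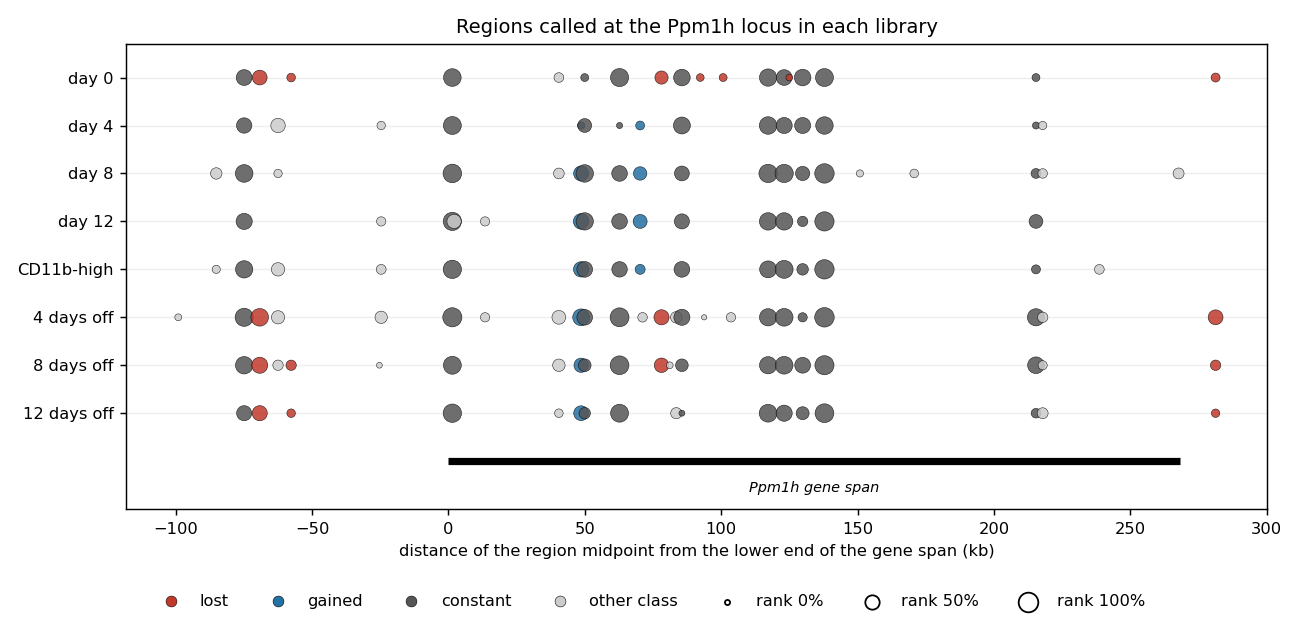
Regions called at the Ppm1h locus, by distance of the midpoint from the lower end of the gene span (kb, x axis) and library (rows), with point size giving the rank of the score within the list and colour the class. Red points of the 7 lost regions appear at day 0 and again, for 4 of them, at 1 or more times off Dox, among dark grey points of the 10 regions open at all 4 times.

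The 2 members that act in the nucleus were Tead1 and Aff3. Tead1 (chromosome 7, 112679356 to 112906784) had 13 regions, 5 lost, 0 gained and 0 open at all 4 times. Its open regions numbered 9, 1, 4 and 2 on days 0, 4, 8 and 12 and 2 in the CD11b-high sort, then 5, 6 and 5 at 4, 8 and 12 days off. The 5 lost regions, whose calls on days 0 to 12 the choice of the loci fixes, are among the 9. Without them 4, 1, 4 and 2 were open on days 0, 4, 8 and 12, and 5, 4 and 4 at the 3 times off. All 5 lost regions were weak, with day-0 scores of 3.81 to 7.23.

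Of the lost Tead1 regions, 112723804 to 112724188 (inside, 4.6 at day 0) was open again at 8 and 12 days off with 5.17 and 4.95, and 112865776 to 112866124 (inside, 6.06) at 8 days off with 6.81. The other 3 were open only at day 0. They were 112643944 to 112644244, 35262 bp outside the gene with 7.23, and 2 neighbours inside it, 112807165 to 112807465 with 3.81 and 112807529 to 112807829 with 7.23, whose midpoints lay 364 bp apart. At the lower gene end, 112679085 to 112679506 scored 3.05 at day 0, 9.66 on day 4, 2.91 in the CD11b-high sort and 4.26 at 4 days off, and was called in none of the other 4 libraries.

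Aff3 (chromosome 1, 38175393 to 38630178) had 27 regions, 5 lost, 1 gained and 3 open at all 4 times. A pair of lost regions inside the gene, with midpoints 1648 bp apart, ranked higher after withdrawal than at day 0. The region at 38237941 to 38238261 scored 3.86 at day 0, then 25.4 and 8.06 at 4 and 8 days off, or 7.54%, 73.8% and 33.0% in rank, and was not open at 12 days off. Its neighbour at 38239587 to 38239911 scored 5.09, then 6.09 and 13.2 at the same times, and was likewise not open at 12 days off.

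A lost region 4078 bp beyond the upper end of Aff3 (38634054 to 38634458) was also open at 4 and 8 days off and not at 12. It scored 5.73 at day 0, then 9.24 and 5.17 at 4 and 8 days off. Its rank was 19.5% at day 0, higher at 4 days off (37.7%) and lower at 8 days off (12.7%). The others, 38657643 to 38657943 (7.16) and 38669023 to 38669323 (3.75), were open only at day 0. No lost Aff3 region was open at 12 days off. The gained region at 38495365 to 38495721 scored 2.86, 12.3 and 10.2 on days 4, 8 and 12, then 5.27 in the CD11b-high sort and 5.21 at 4 days off, with no later call. By contrast, a distal region at 38694131 to 38694527 was open throughout with ranks of 77.0% to 99.9%.

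Among the GTPase regulators, Arhgap24 encodes FilGAP, a GTPase-activating protein for Rac that binds filamin (chromosome 5, 102207198 to 102905035). It had 15 regions, 4 lost, 0 gained and 0 open at all 4 times. Of the 11 that were not lost, 4, 4, 3 and 1 were open on days 0, 4, 8 and 12, and 6, 6 and 3 at 4, 8 and 12 days off. The lost region at 102692546 to 102692872, inside the gene, had the highest day-0 score of all 42, at 13.2. Later calls scored 5.27 in the CD11b-high sort and 6.20 and 7.08 at 4 and 8 days off, ranking 54.6% at day 0 and 19.4% to 26.4% in these 3. Another inside region, 102874683 to 102874993, scored 10.6 at day 0 and returned only at 8 days off, at 8.61.

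The remaining lost Arhgap24 regions, 102667810 to 102668110 (4.5) and 102149843 to 102150143 (2.02, 57205 bp outside), were open only at day 0. For the latter, a summit of the total-cell lists of days 4, 8 and 12 (a later Dox summit) lay 310 bp away, in the adjoining region at 102149488 to 102149833, which was open on days 0 and 8, in the CD11b-high sort, and at 4 and 8 days off. At the lower gene end, 102206980 to 102207528 scored 4.09, 6.54 and 4.39 on days 0, 4 and 8, was missing from the day-12 and CD11b-high lists, and scored 5.19, 9.18 and 4.14 at the 3 times off.

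Rapgef2, an exchange factor that activates Rap1 (chromosome 3, 79062511 to 79286545), had 22 regions, 4 lost, 0 gained and 10 open at all 4 times. All 4 lost regions were open at 4 days off and none at 12 days off. A distal region, 79000504 to 79000890 (61814 bp away), scored 11.1 at day 0, then 7.23 and 9.11 at 4 and 8 days off. Inside the gene, 79234506 to 79234854 scored 9.30 and then 11.9 and 8.39, although a later Dox summit lay 479 bp from it in a region open in all 8 libraries (79233629 to 79234354).

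The 2 weaker Rapgef2 regions, 79221692 to 79222005 (7.23 at day 0) and 79248181 to 79248484 (2.48), returned only at 4 days off, at 6.18 and 6.20. Beyond the upper end of the gene, 781 bp outside, the region at 79287129 to 79287524 was open throughout at ranks of 94.1% to 98.2%. It overlapped the RefSeq promoter window of the long non-coding RNA gene 6430573P05Rik.

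Prex1, a Rac exchange factor activated by G protein βγ subunits and phosphoinositides (chromosome 2, 166566345 to 166713832), had 27 regions, 4 lost, 0 gained and 7 open at all 4 times. Of the 23 that were not lost, 10, 10, 15 and 8 were open on days 0, 4, 8 and 12, 6 in the CD11b-high sort, and 19, 16 and 12 at 4, 8 and 12 days off, while list lengths differed as well. Lost regions were 166564450 to 166564826 (1707 bp outside, 9.15 at day 0, 4.26 and 8.61 at 4 and 8 days off), and its neighbour 166563924 to 166564224 (6.94, open only at day 0).

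The 2 lost regions inside Prex1 both scored 5.46 at day 0. That at 166674746 to 166675091 was open at all 3 times off with low scores of 3.78, 4.12 and 3.78. That at 166598501 to 166598815 returned at 4 days off only (6.12) and had a later Dox summit 686 bp away.

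Nav3 (chromosome 10, 109681260 to 110455722), whose product binds microtubule ends, had the fewest regions of the members. Of its 8 regions 5 were lost, 0 gained and 2 open at all 4 times, and of the 3 that were not lost, 2, 2, 3 and 2 were open on days 0, 4, 8 and 12. All 5 lost regions lay inside the gene. The region at 110445898 to 110446221, 9663 bp from the upper gene end, scored 8.68 at day 0, then 7.04, 8.31 and 5.90 at 4, 8 and 12 days off. The strongest, 110085186 to 110085525, scored 9.63 at day 0 and 11.6 at 4 days off only.

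A Nav3 region, 109765676 to 109765990, was open at day 0 (6.63) and in CD11b-high cells (5.93) but not in total cells of day 12 or off Dox. The others, 110085954 to 110086254 (4.95) and 110096884 to 110097184 (2.32), were open only at day 0. In the lists of total cells of days 4, 8 and 12, the summit nearest to any of the 5 lay 95645 bp away.

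Col26a1, the collagen gene (chromosome 5, 136741759 to 136883376), had 11 regions, all inside the gene, of which 4 were lost, 0 gained and 3 open at all 4 times. Each lost region was open at 1 or more times off. The strongest, 136784457 to 136784784, scored 10.5 at day 0, then 8.85, 5.35 and 4.36 at 4, 8 and 12 days off. The region at 136755731 to 136756058 scored 8.07 and returned at 12 days off only (4.16), while 136764310 to 136764640 (4.24) and 136872261 to 136872603 (2.32) returned at 4 days off only (4.45 and 4.26).

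A Col26a1 region open in all 8 libraries, 136863974 to 136864375, scored 32.1 at day 0, 19.0, 8.63 and 11.1 at day 4, 8 and 12, 6.97 in CD11b-high cells, and 62.0, 40.1 and 29.3 at 4, 8 and 12 days off. Its rank was 79.4% at day 0, 36.0% to 63.0% in the 4 restored libraries and 86.1% to 96.9% after withdrawal. The restored libraries did not overlap the others. This region too was singled out after its values were seen.

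Slc44a3 (chromosome 3, 121459528 to 121532344) had 18 regions, 4 lost, 0 gained and 3 open at all 4 times. The lost region inside the gene, 121481591 to 121481961, scored 6.99 at day 0, then 7.23, 16.1 and 4.54 at 4, 8 and 12 days off. A distal region at 121577086 to 121577655, 45026 bp outside, scored 6.33 at day 0, 3.06 in CD11b-high cells and 12.8, 5.97 and 5.96 off Dox. Both were therefore open at all 3 times off.

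The other lost regions of this locus rest less firmly on it. At 121589128 to 121589495 (56967 bp outside, 7.73 at day 0, 4.98 at 8 days off) a later Dox summit lay 359 bp away, in the adjoining region 121589541 to 121589974 that was open in all 8 libraries. The last, 121458721 to 121459021 (5.62, open only at day 0), lay 657 bp from Slc44a3 and 666 bp from the neighbouring gene Cnn3, so it is nearly as close to the neighbour.

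The libraries after withdrawal and of CD11b-high cells were not used to choose the loci. Of the 42 lost regions, 21 (50%, exact 95% interval 34.2 to 65.8) had a call at 4 days off, 20 (47.6%, 32.0 to 63.6) after 8 and 10 (23.8%, 12.1 to 39.5) after 12. Lost regions of other genes were open in 48.7%, 45% and 25.6%, inside these intervals. In CD11b-high cells 3 of 42 were open (7.14%, 1.5 to 19.5), beside 7.13% of the others. With all lists cut to equal length, the shares at 4, 8 and 12 days off were 26.5%, 41.2% and 35.3% of 34 lost regions at the 9 loci and 28.9%, 39.1% and 38.2% elsewhere. The order of the 3 times thus turned with list length, and no decline by 12 days off is read from the full lists. In CD11b-high cells the equal-length shares were 5.88% (2 of 34, exact 95% interval 0.720 to 19.7) and 11.4% elsewhere.

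Over the 3 times off, 27 of 42 (64.3%, 48.0 to 78.4) were open at least once, beside 64.4% elsewhere, and every locus had at least 2 such regions. Open at all 3 were 7 (16.7%, beside 15.9% elsewhere), of which Ppm1h and Slc44a3 held 2 each and Nav3, Col26a1 and Prex1 1 each. The commonest course after none (15 regions) was open at 4 and 8 days and not at 12 (8 regions), held by Aff3 with 3, Rapgef2 with 2, and Ppm1h, Arhgap24 and Prex1 with 1 each. In all, 14 regions (33.3%, beside 34.6% elsewhere) were open in the day-0 list alone, with Ppm1h and Tead1 holding 3 each and Rapgef2 and Col26a1 0.

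Regions that were stronger at day 0 returned in larger numbers. Among the 21 with a day-0 score of at least the median of 5.90, 16 were open at 1 or more times off (76.2%), against 11 of 21 below it (52.4%). Lost regions of other genes split at the same score gave 74.2% and 57.9%. Of those open again at 4 days off, 13 of 21 ranked higher in that list than at day 0, as did 9 of 20 at 8 days off (45%) and 3 of 10 at 12. Elsewhere the shares were 64.6%, 61.0% and 50.4%. The median rank difference at 8 days off was -2.96 percentage points at the 9 loci and 4.5 elsewhere. These ranks come from lists of different length, 36041 summits at day 0 and 51060 at 4 days off.

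**Figure D3:**
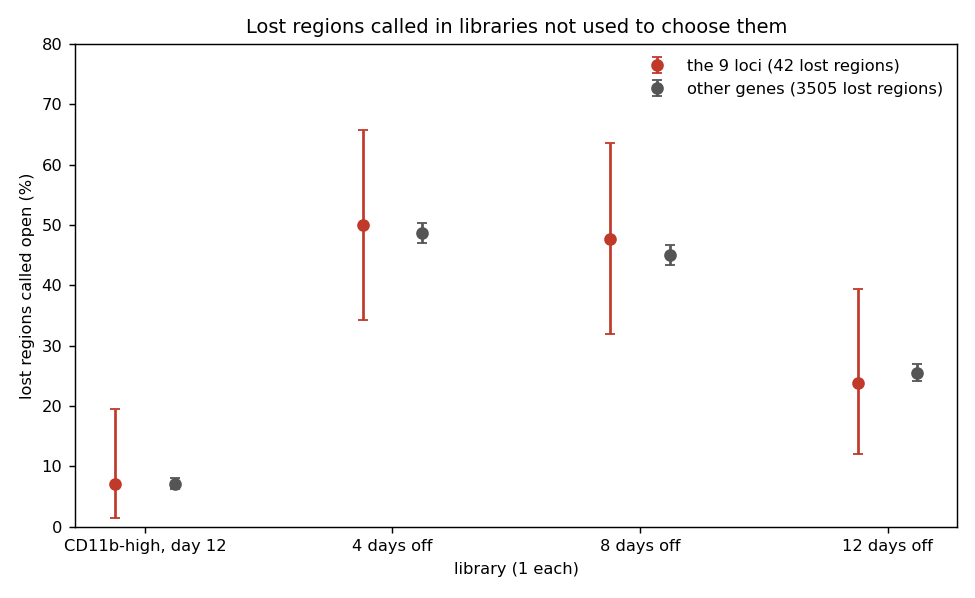
Share of lost regions called open (percent, y axis) in the 4 libraries not used to choose them (x axis), for the 42 lost regions of the 9 loci and the 3505 of other genes, with exact 95% intervals that cover counting error only. The points of the 9 loci, from 7.14% in CD11b-high cells to 50% at 4 days off, lie beside those of other genes, and their intervals include them.

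The lost regions enter any count over days 0 to 12 as the choice of the loci fixed them, so the loci were also described by their other 136 regions. The choice also counted gained regions against a locus, so calls of the 136 on days 0 to 12 are not free of it. Nothing is read from their differences to other genes on those days. At day 12, 38.2% of the 136 were open, against 52.9% of the regions of other genes that were not lost. The share was lowest at Arhgap24 (1 of 11, 9.09%), Aff3 (5 of 22, 22.7%) and Tead1 (2 of 8, 25%), and 55.6% at Rapgef2 (10 of 18). At 4 days off it was 82.6% at Prex1 (19 of 23) and 77.8% at Rapgef2 (14 of 18), beside 74.7% elsewhere, and 50% at Slc44a3 (7 of 14) and 54.5% at Arhgap24 (6 of 11). Nav3 had only 3 such regions, of which 2 or 3 were open in every library. List lengths differ between libraries, so a share is best read against that of other genes in the same library.

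**Figure D4:**
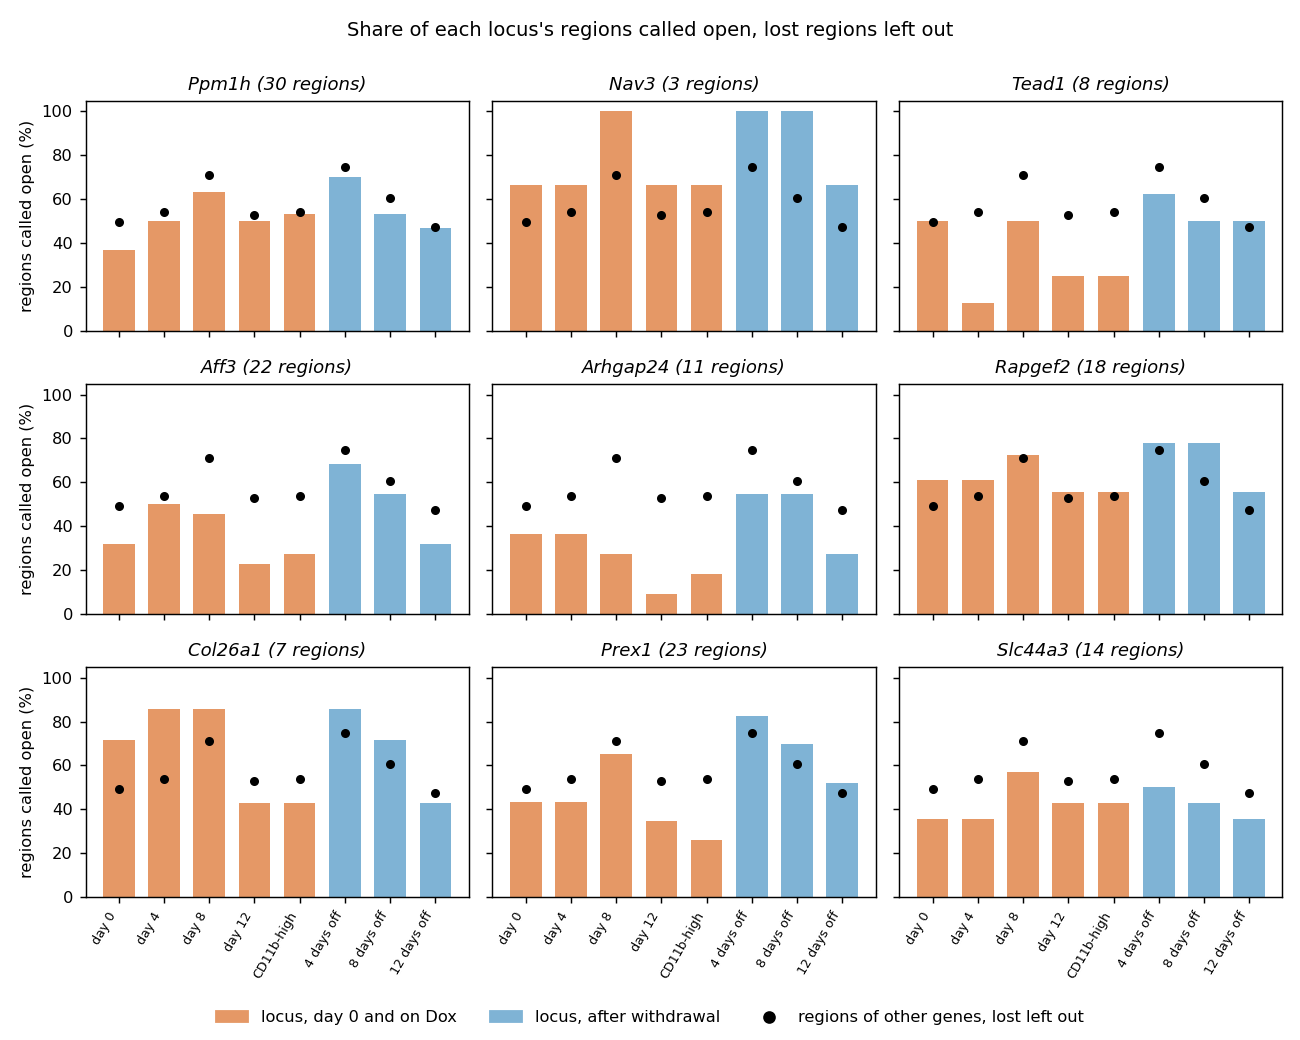
Share of each locus's regions called open (percent, bars from 0) in each of the 8 libraries, with black points for the regions of other genes and lost regions left out of both. Bars at Ppm1h, Aff3, Arhgap24 and Slc44a3 lie below the points in all 8 libraries, and those at Rapgef2 and Nav3 (3 regions) above them.

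After withdrawal, some regions were called that no library on Dox or at day 0 had shown. There were 37 of these at the 9 loci (20.8% of 178, 15.1 to 27.5), beside 14.8% of regions of other genes. By definition they have no call on days 0, 4, 8 and 12, which were used to choose the loci. Nothing is therefore read from the difference. The list of 4 days off was the longest, with 51060 summits against 36041 at day 0, and the part of list length was not tested. Most of the regions with other patterns were called in few lists. Of all 178 regions, 61 were called in a single library, among them the 14 lost regions open only at day 0. The share of such regions at other genes was not computed, so this count is not read as a trait of the loci. A later step was seen at 9 regions that were called on days 0, 4 and 8 but not 12 (5.06%, beside 5.12% at other genes), of which 3 belonged to Prex1, 2 to Col26a1 and 1 each to Aff3, Arhgap24, Rapgef2 and Slc44a3. Of these 9, 2 were open in CD11b-high cells (22.2%), 8 at 4 and 8 at 8 days off (88.9% each), and 5 at 12 days off (55.6%). Such regions of other genes were open in 48.3%, 88.4%, 84.2% and 62.6%.

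Persisting regions moved in rank much as those of other genes did. The 38 regions open at all 4 times had a median rank difference, day 12 minus day 0, of -3.23 percentage points, and 22 of them (57.9%) ranked lower at day 12. Persisting regions of other genes had -2.29 points and 57.6% lower. All 38 were open at 4 and at 8 days off, and 36 (94.7%) at 12 days off and in CD11b-high cells. Elsewhere the shares were 98.7%, 97.6%, 91.8% and 93.3%.

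Related genes were taken from lists of paralogues and pathways. The 27 paralogues of the members held 18 lost and 9 gained among 202 regions (8.91% and 4.46%), beside 5.49% and 4.86% over all assigned regions. On balance 10 of the 26 with a region lost (38.5%) and 5 gained (19.2%), beside 14.4% and 12.0% of all 16303 genes with a region. Those 16303 genes held 64638 regions, so the paralogues had more regions per gene. The shares of genes were not matched for this, and both were higher among paralogues. Nav1, Ppm1l, Ppm1b, Arhgap22 and Emid1 each had 2 lost and 0 gained, and the choline transporter gene Slc44a1 had 0 lost and 2 gained. The median paralogue, like the median gene, had a difference of 0.

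The Hippo pathway list took in genes of kinases and effectors upstream of TEAD factors, along with others such as the target gene Ccn1. Of the 22 genes listed, 17 had a region. They held 4 lost and 3 gained of 63 regions (6.35% and 4.76%), beside 5.49% and 4.86% over all assigned regions. Of the lost ones, 2 lay at the kinase activator Mob1b and 1 each at Ccn1 and Amotl1. Ccn1, a target gene of YAP and TEAD, had its lost region (chromosome 3, 145640688 to 145641031, 6112 bp outside the gene) at 10.6 at day 0, then 4.26, 7.85 and 9.84 at 4, 8 and 12 days off. No region was assigned to Yap1. The 29 Rac and Rap regulators held 18 lost and 20 gained of 284 regions (6.34% and 7.04%), beside the same 5.49% and 4.86%. Rap1a and Flna, the filamin gene, each had 2 lost and 0 gained, and Arhgdib and Sipa1l1 each 0 lost and 2 gained. In each of these lists the median gene had a difference of 0.

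The gene outside the 9 whose course over the 8 libraries was most like that of Ppm1h was Camta1, with a Pearson r of 0.81 between their shares of open regions less the library's overall share. Chd9, also among the most alike, had 0.69, and 431 genes with at least 15 regions were compared. Camta1 had 1 lost and 2 gained of 30 regions, and Chd9 1 lost and 0 gained of 21. Neither gene thus shared the many lost regions of Ppm1h. The 8 points of such a comparison share their libraries and list lengths, so the values only describe likeness. The course of Ppm1h includes its 7 lost regions, which the choice of the loci fixed on days 0 to 12.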

How the data were processed

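ATAC-seq libraries of 50000 cells each were sequenced as paired 75 bp reads, per the labels' protocols. The labels also mention ChIP, but the series text and library preparation name ATAC-seq. The deposited files list peak summits on mm10, 1 list per library, made by the authors with MACS2 and Picard 2.14.0, per the submitters' processing notes. The MACS2 version, aligner and depth were not given in the sources used here. Scores in the deposited lists start at 1.30 to 1.39 and were taken to be −log10 significance values (whether p-value or q-value was not settled).

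Each summit was widened by 150 bp to either side and overlapping windows were merged. Per list, 85 to 121 summits outside the assembled nuclear chromosomes were dropped. Regions were assigned by midpoint to the nearest of 21887 protein-coding spans in a RefSeq table (GRCm38.p6), which gives no exons. Shares carry exact Clopper-Pearson 95% intervals. The rules were tested on simulated lists (Python 3.11.15, pandas 2.3.3, SciPy 1.17.1). The members and lists were chosen with earlier results of these data known. Named were all 9 genes, every lost or gained region, persisting regions near gene ends, up to 3 genes per list and direction with ties, the genes next to the threshold with most lost regions, and the 3 genes most like Ppm1h, of which 1 is not reported here. Other persisting or variable regions were named after their values were seen. Alternatives covered score, list length, merging width, gene distance, neighbouring summits and the lists used. Lost regions' sequences were not analysed here.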

Additional observations from a re-analysis of the deposited data

How the results depend on the processing

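With only summits scoring at least 10, 7 regions were lost in place of 42, with 0 at Nav3, Tead1, Prex1 and Slc44a3. Only 5 of the 42 scored at least 10 at day 0, so the 7 include regions whose weaker calls on Dox the cut removed. Under the 9 other alternatives the count of lost regions stayed between 28 (inside the gene only) and 49 (day-8 list not used). Gained regions numbered 1 in place of 3 at a score of at least 10. They numbered 6, 5 and 7 without the day-4, day-8 and day-12 list, which drop a requirement of the rule. With only summits scoring at least 10, 0% of the 7 lost regions were open in CD11b-high cells, which allows up to 41.0%. With lists of equal length (31867 summits each), 26.5% of 34 lost regions were open at 4 days off in place of 50%, and 28.9% of those of other genes. At 8 and 12 days off they were 41.2% and 35.3% (39.1% and 38.2% elsewhere), so the order of the times turned, and in CD11b-high cells 5.88% (11.4% elsewhere). The other shares stayed inside the intervals of the reported values. No paired analysis was possible because each group has 1 library, and leaving out a replicate was not possible for the same reason. The unknown read depth limits what a missing call can show.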
